A study of Mus musculus with 57 samples.

Results

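The immediate early genes described here are Fos, Fosb, Jun, Junb, Egr1, Egr2, Egr3, Arc, Npas4 and Nr4a1, which are transcribed within minutes of a stimulus without new protein synthesis. They were chosen by name, by a rule that uses no measured value, though with earlier results of these data known, and make up 10 of the 25672 genes with a curated RefSeq transcript. The histone marks H3K4me3, H3K27ac and H3K27me3 at their promoters were compared between 2 tissues. A promoter was taken as the 2 kb centred on the transcription start site (TSS), that is, all bases within 1 kb of it, and the flank as the bases from 1 kb to 50 kb away on either side.

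In neurons these genes follow calcium entry and synaptic activity, and in skeletal muscle the same family follows contraction, stretch and injury. Most members encode transcription factors. Fos, Fosb, Jun and Junb pair into the AP-1 factor, Egr1 to Egr3 encode zinc-finger factors, Nr4a1 encodes an orphan nuclear receptor, Npas4 encodes a bHLH-PAS factor known for its restriction to neurons, and Arc encodes a synaptic protein that assembles into capsid-like particles. H3K4me3 marks promoters that are active or ready for use, H3K27ac marks active promoters and enhancers, and H3K27me3 is laid down by Polycomb complexes at silent genes.

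The animals were PSAPP mice, a model of amyloid deposition carrying a mutant human presenilin transgene and a chimeric mouse/human APP transgene with familial mutations, killed at 13 months. The sources used here do not name the promoter that drives the transgenes. All mice carried both transgenes, were singly housed and ate a fixed daily ration, so that no group without the transgenes, of another age or on another diet was compared. The study used both sexes, but the labels of these libraries name none, and the sexes were not separated. Chromatin of frozen cerebral cortex from 9 mice and of gastrocnemius, the large calf muscle, from 10 mice was immunoprecipitated for each mark and sequenced, which gave 57 libraries. The 9 mice with cortex also gave gastrocnemius.

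Each library was deposited as a list of peaks with the number of ChIP reads in each. For each mark, 2 of 9 cortex and 4 of 10 gastrocnemius libraries carry an added number, called a run number below. No libraries share such a number, so it names no common batch, and it is spread unevenly over the tissues. Where the run was a term in a model, the term was whether a library carries a number. The libraries held 9.16 to 19 M reads in peaks for H3K4me3, 3.94 to 27.3 M for H3K27ac and 2.99 to 18.2 M for H3K27me3. The cortex had fewer H3K4me3 peaks than the gastrocnemius (median 21888 against 24319) and more H3K27ac (66883 against 53746) and H3K27me3 peaks (41340 against 37659). Levels are given as RPM, the reads of a peak per 1000000 reads in all autosomal peaks of that library. All 7 neuronal marker genes checked had an H3K4me3 promoter peak in every cortex library and 2 of them did in every gastrocnemius library, with summed levels of 741 to 959 RPM and 14.2 to 42.3 RPM. All 6 myofibre markers had one in every gastrocnemius library (456 to 1129 RPM summed) and none did in every cortex library (0 to 126 RPM), with Ckm, Myh1, Myh4 and Tnnt3 in no cortex library. Both labels therefore matched their defining markers. The 4 endothelial markers also summed higher in the gastrocnemius, at 289 to 496 RPM of H3K4me3 against 94.3 to 120 RPM. The part of these other cell types in the values below was not tested.

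Nearly all members carried both active marks in both tissues. An H3K4me3 peak and an H3K27ac peak overlapped the promoter of all 10 genes in 9 of 9 cortex libraries, and of 9 genes in 10 of 10 gastrocnemius libraries. Of all 25672 genes, 15043 had an H3K4me3 and 15113 an H3K27ac promoter peak in every cortex library. In every gastrocnemius library 14583 and 14626 did. The exception was Npas4 (chr19:4984353-5003439, minus strand, mm10). Its H3K4me3 peak was present in 9 of 9 cortex and 1 of 10 gastrocnemius libraries (Fisher's exact test, adjusted p = 0.00194). Its H3K27ac peak was present in 9 of 9 and 0 of 10 (Fisher's exact test, adjusted p = 0.000187). Over all genes tested, 5.07% were called more often in cortex and 3.33% in gastrocnemius for H3K4me3 (8.4% in all), and 9.26% and 4.1% for H3K27ac (13.4% in all), so 1 of 10 members is a share near the background. In bulk tissue, fewer cells carrying a mark and less of the mark per cell cannot be told apart, here and in all results that follow.

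The Npas4 difference was one of position as well as of presence. In gastrocnemius, 10 of 10 libraries had an H3K27ac peak and 9 of 10 an H3K4me3 peak over the 1-kb bin centred 3.5 kb upstream of the Npas4 TSS, where 9 of 9 cortex libraries also had both. From 1.0 kb upstream to 6.0 kb downstream, all 7 bins had H3K4me3 in 9 cortex and 0 gastrocnemius libraries. When the promoter was widened to 2.5 kb on either side, the upstream peak was taken in and the gastrocnemius counts became 6 of 10 for H3K4me3 and 5 of 10 for H3K27ac, and neither call held (exact test, adjusted p = 0.707 and 0.214). In the paired sign test over the 9 animals, the H3K4me3 difference in the narrow window also missed the threshold (exact test, adjusted p = 0.125).

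H3K27me3 divided the family into 3 groups. Fos, Fosb, Jun, Junb and Nr4a1 had no H3K27me3 promoter peak in any of the 19 libraries, and Egr1 had one in gastrocnemius replicate 6 alone. Egr2 and Egr3 had one in all 19, taken for Egr2 at the most upstream of its 6 curated start sites. Arc and Npas4 lay between. The Arc promoter (chr15:74669081-74672570, minus strand) was under H3K27me3 in 0 of 9 cortex and 10 of 10 gastrocnemius libraries (Fisher's exact test, adjusted p = 0.000229). Npas4 was covered in 5 of 9 and 9 of 10, which did not pass the test (exact test, adjusted p = 0.383). In 1-kb bins, described with the flanks, both bins of the first 2 kb downstream of the Npas4 TSS were marked in 2 of 9 and 9 of 10 libraries, which passed (adjusted p = 0.0586). An H3K27me3 promoter peak in at least 1 library was found at 5 of 10 members and at 11486 of all 25672 genes, a similar share. In all 19 libraries 2008 genes had one. Of the 5 members tested for a promoter peak, 1 was called more often in gastrocnemius, against 12.3% of all genes tested, with 9.94% called more often in cortex and 22.2% in either direction.

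Taken animal by animal, the 3 marks gave each gene a pattern. All 9 cortex samples of Arc had both active marks without H3K27me3, and all 10 gastrocnemius samples had all 3 marks. Npas4 had the active pair alone in 4 cortex samples and all 3 marks in 5. In gastrocnemius, H3K27me3 alone lay over Npas4 in 8 samples, H3K27me3 with H3K4me3 in 1 and no mark in 1. Egr2, at its most upstream start site, and Egr3 had all 3 marks in every sample of both tissues. Peaks of different marks in one tissue sample may come from different cells.

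Promoter sequences are shown for 3 members whose marks behaved differently, a gene whose H3K4me3 reads did not pass the test between tissues (Fos), one without an H3K27ac promoter peak in any muscle library (Npas4) and one higher in muscle for both (Nr4a1). Each line gives the 250 bases before the TSS, 5′ to 3′ on the coding strand, from RefSeq on GRCm38.p6, the assembly that mm10 represents. They lie at chr12:85473640-85473889 on the plus strand, chr19:4989972-4990221 on the minus strand and chr15:101266596-101266845 on the plus strand. Capitals mark TGACG or its reverse complement CGTCA, the half-site of the cyclic AMP response element (CRE) bound by CREB, and the TATA-box letters TATAAA.
Fos: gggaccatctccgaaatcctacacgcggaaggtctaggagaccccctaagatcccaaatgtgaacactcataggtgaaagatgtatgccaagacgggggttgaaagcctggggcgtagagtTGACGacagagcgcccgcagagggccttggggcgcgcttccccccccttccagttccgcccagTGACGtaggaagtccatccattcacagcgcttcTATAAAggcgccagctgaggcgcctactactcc
Npas4: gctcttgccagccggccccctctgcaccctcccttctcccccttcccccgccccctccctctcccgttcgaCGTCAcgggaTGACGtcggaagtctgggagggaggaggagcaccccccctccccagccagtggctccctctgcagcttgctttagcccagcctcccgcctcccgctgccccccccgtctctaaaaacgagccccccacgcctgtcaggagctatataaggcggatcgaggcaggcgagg
Nr4a1: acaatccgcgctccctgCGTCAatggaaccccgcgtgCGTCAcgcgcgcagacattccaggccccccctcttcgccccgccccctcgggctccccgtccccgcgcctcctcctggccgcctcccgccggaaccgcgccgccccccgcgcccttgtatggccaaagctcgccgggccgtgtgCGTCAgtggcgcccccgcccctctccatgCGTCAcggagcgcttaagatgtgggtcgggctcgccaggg

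A CRE half-site was found in 5 of the 7 members whose promoter sequence was at hand, with 2 matches in Fos, 2 in Npas4, 4 in Nr4a1 and 1 each in Fosb and Junb. Of all 27025 promoters of the same length, 17.9% held one. TATAAA, on either strand, was found in Fos alone (13.0% of all promoters). Other forms of the TATA box were not searched for. The EGR site GCGNGGGCG, on either strand, was found in Fosb and Nr4a1 (4.65%). The full CRE TGACGTCA (1.62%), the AP-1 site TGANTCA (6.87%) and the CArG box of serum response factor (1.40%), on either strand, matched none of the 7. Sequences of Egr1, Egr3 and Arc were not used here. No base beyond the 250 before each TSS was searched, so a missing match does not exclude a site farther away. A match to these letters is a description of the window and does not show binding.

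H3K4me3 reads in promoter peaks moved in both directions among the members. The 9 genes with a peak in all 19 libraries were tested on the reads of the whole peak that overlaps the promoter with edgeR's quasi-likelihood test at an adjusted p below 0.1. Arc and Egr3 were higher in cortex, Fosb, Jun, Junb, Egr2 and Nr4a1 were higher in gastrocnemius, and Fos and Egr1 did not pass. Npas4 was left out of this test by its missing peaks in gastrocnemius. Of all 13901 genes tested, 38.4% were higher in cortex and 39.9% in gastrocnemius, so most promoters differed between the tissues and 7 of 9 members is no more than the background of 78.2%. The median log2 difference of the 9 members, cortex minus gastrocnemius, was −0.29, against −0.01 over all genes tested.

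**Figure D1:**
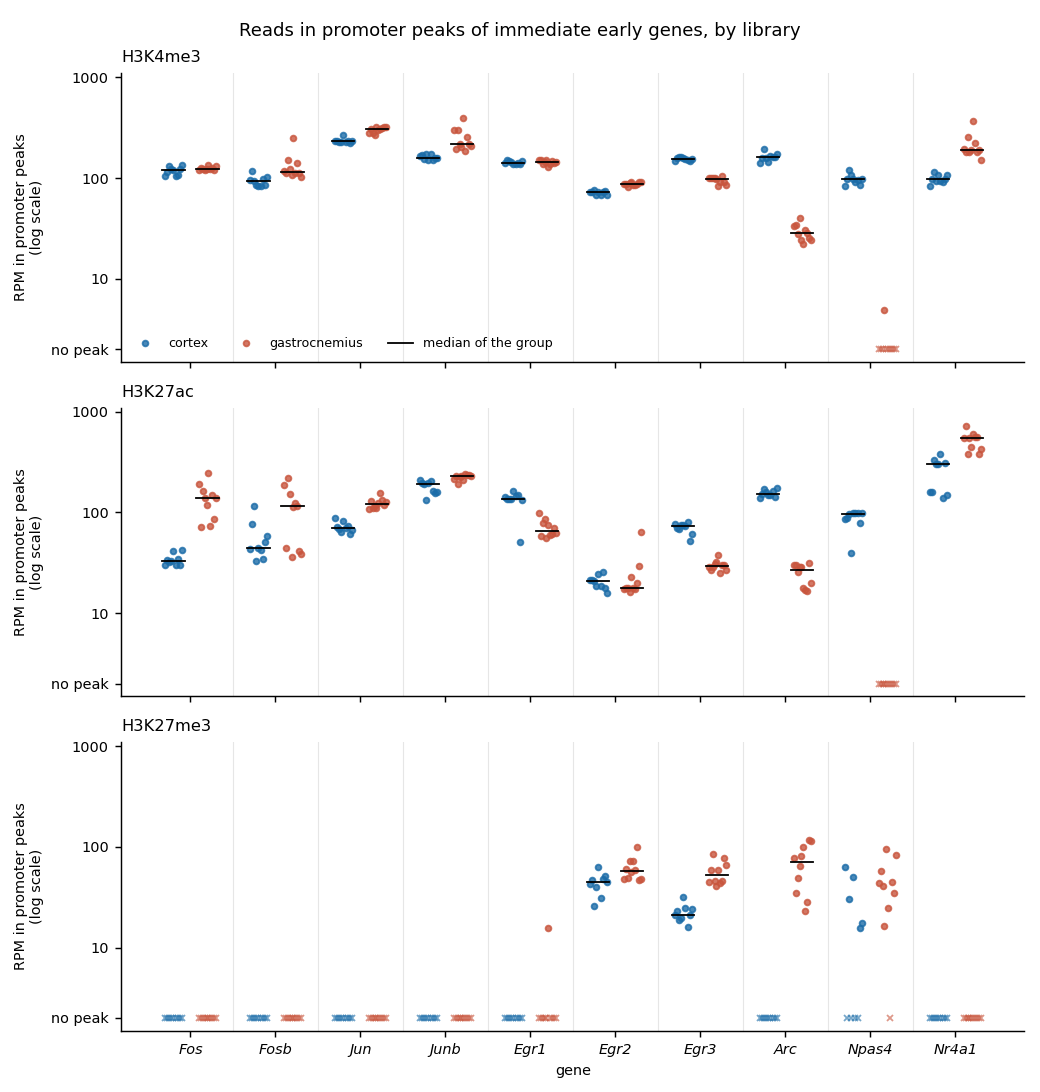
Reads in promoter peaks (RPM, log scale) of the 10 genes in each library, with H3K4me3 above, H3K27ac in the middle and H3K27me3 below. Each point is 1 library of cortex or gastrocnemius, bars are group medians, and libraries without a peak are set at the bottom. Arc stands apart in all 3 marks, and Npas4 has H3K27ac points in cortex alone.

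Among the AP-1 genes, Jun and Junb had H3K4me3 levels that did not overlap between the tissues. The share of all genes without overlap was not counted, here or in the results below. By the test on reads 78.2% of all genes differed. Jun (chr4:95049036-95052222, minus strand), a single-exon gene, had 223, 233 and 267 RPM as the lowest, median and highest cortex library and 268, 309 and 324 RPM in gastrocnemius. The groups did not overlap, and the log2 difference was −0.37 ± 0.03 (SE, adjusted p = 5.28e-09). Junb (chr8:84976909-84978748, minus strand), also of 1 exon, had 151, 158 and 173 RPM in cortex and 186, 217 and 393 RPM in gastrocnemius, again without overlap (−0.63 ± 0.13, adjusted p = 0.000207).

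The Fos branch was less separated in H3K4me3. Fos (chr12:85473890-85477274, plus strand) had 105, 119 and 136 RPM in cortex and 120, 123 and 134 RPM in gastrocnemius, with full overlap of the muscle range by the cortex range (−0.08 ± 0.05, adjusted p = 0.167). With the animal as a block the Fos difference was −0.09 and passed (adjusted p = 0.0966), and without run-numbered libraries it was −0.12 and passed too (adjusted p = 0.0412). Fosb (chr7:19302696-19310118, minus strand) had 84, 93.8 and 118 RPM in cortex and 103, 115 and 252 RPM in gastrocnemius, and the groups overlapped (−0.51 ± 0.15, adjusted p = 0.00468). Gastrocnemius replicate 6 was the highest of its group for Fos, Fosb, Junb and Nr4a1.

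The zinc-finger genes went in different directions. Egr1, on chromosome 18, had 138, 141 and 151 RPM in cortex and 128, 144 and 153 RPM in gastrocnemius (−0.01 ± 0.03, adjusted p = 0.847). Egr2 (chr10:67534469-67542188, plus strand, 6 curated start sites, of which the most upstream was used), known for its role in Schwann cell myelination, had 68.1, 72.8 and 77.0 RPM and 81.7, 87.3 and 92.0 RPM, lower in cortex without overlap (−0.29 ± 0.03, adjusted p = 1.64e-08). Egr3 (chr14:70077317-70082613, plus strand), which muscle spindles need for their formation, had 148, 156 and 164 RPM and 84.2, 98.8 and 105 RPM, higher in cortex without overlap (0.70 ± 0.04, adjusted p = 7.40e-12). All 3 ranges were narrow: the coefficient of variation (CV) of Egr3 in cortex was 3.35% and that of Egr2 in gastrocnemius 3.59%, against medians of 5.78% and 9.36% over all genes with a peak in every library of the tissue.

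Arc and Nr4a1 had the 2 largest H3K4me3 differences of the 9 members tested on reads. Arc had 140, 160 and 193 RPM in cortex and 22.2, 28.3 and 40.6 RPM in gastrocnemius, a 5.55-fold difference (log2 2.47 ± 0.10, adjusted p = 1.28e-14). Nr4a1 (chr15:101253902-101274795, plus strand) had 83.9, 97.2 and 116 RPM in cortex and 153, 190 and 371 RPM in gastrocnemius, 2.17-fold higher in muscle (−1.12 ± 0.14, adjusted p = 5.48e-07). Neither pair of groups overlapped, a property whose share over all genes was not counted. Npas4 had 84.4, 97.5 and 120 RPM in cortex, and the single gastrocnemius peak, in replicate 4, held 4.89 RPM.

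H3K27ac reads also moved in both directions. Egr1, Egr3 and Arc were higher in cortex, and Fos, Fosb, Jun, Junb and Nr4a1, that is, all AP-1 members and the nuclear receptor, were higher in gastrocnemius, while Egr2 did not pass. Over all 13330 genes tested, 33.9% were higher in cortex and 38.7% in gastrocnemius, and the medians were −0.20 for the 9 members and −0.06 for all. A count of 8 of 9 members called is thus close to the overall share of 72.6%. Scaling by RPM without TMM factors shifted the median of all genes to −0.20 and the share of calls that were higher in cortex from 46.7% to 36.2%, and it turned the direction of no member.

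Fos showed the widest separation of the AP-1 genes in H3K27ac. Its peak held 29.8, 33.3 and 42.8 RPM in cortex and 71.1, 140 and 244 RPM in gastrocnemius, 3.67-fold higher without overlap (−1.87 ± 0.20, adjusted p = 1.06e-07). Jun had 60.8, 70.4 and 88.1 RPM and 108, 121 and 158 RPM, also without overlap (−0.65 ± 0.08, adjusted p = 1.14e-06). For H3K4me3, Jun passed the threshold and Fos did not.

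Fosb and Junb overlapped between the tissues. Fosb had 33.2, 44.2 and 116 RPM in cortex and 36.5, 115 and 221 RPM in gastrocnemius, a difference of −0.81 ± 0.36 (adjusted p = 0.0533), with CVs of 47.3% and 62.0% against medians of 15.6% and 20.5% over all genes. Junb had 134, 191 and 208 RPM and 190, 230 and 243 RPM (−0.20 ± 0.09, adjusted p = 0.0686), and it did not pass with the animal as a block (adjusted p = 0.171), without run-numbered libraries (−0.13, adjusted p = 0.357), without the libraries of fewest reads (0.168) or without cortex replicate 4 (0.140) or 8 (0.109). The H3K27ac peak of Junb also covered the promoters of Hook2, Prdx2 and Rnaseh2a in 10 of 10 gastrocnemius libraries, and in 5, 6 and 6 of 9 cortex libraries, so its reads are shared with these neighbours.

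Among the zinc-finger genes, Egr3 and Egr1 had more H3K27ac in cortex. Egr3 had 52.5, 72.7 and 80.6 RPM in cortex and 25, 29.5 and 37.7 RPM in gastrocnemius, without overlap (1.37 ± 0.09, adjusted p = 4.11e-11). Egr1 had 50.7, 137 and 163 RPM and 55.7, 66.1 and 98.1 RPM (1.04 ± 0.16, adjusted p = 1.16e-05), and the overlap came from cortex replicate 8 alone, the next lowest cortex library being at 132 RPM. Egr2 had 15.9, 21.1 and 25.4 RPM and 16.2, 18.0 and 63.4 RPM. Its difference of −0.09 ± 0.22 (adjusted p = 0.738) turned to 0.20 (adjusted p = 0.141) without gastrocnemius replicate 10, the library at 63.4 RPM, and to 0.42 without the libraries that carry a run number, where it passed (adjusted p = 0.000337).

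Arc again had the largest difference of the 9 members tested. Its H3K27ac peak held 140, 152 and 176 RPM in cortex and 16.7, 27.1 and 31.8 RPM in gastrocnemius, 6.94-fold (2.79 ± 0.15, adjusted p = 2.50e-12). Cortex libraries differed little for Arc, with a CV of 8.11%. Nr4a1 had 139, 302 and 378 RPM in cortex and 378, 545 and 725 RPM in gastrocnemius, where the ranges met at their edge (−0.91 ± 0.22, adjusted p = 0.00104). Npas4 had 39.5, 96.8 and 99.1 RPM in cortex, with replicate 4 the lowest.

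**Figure D2:**
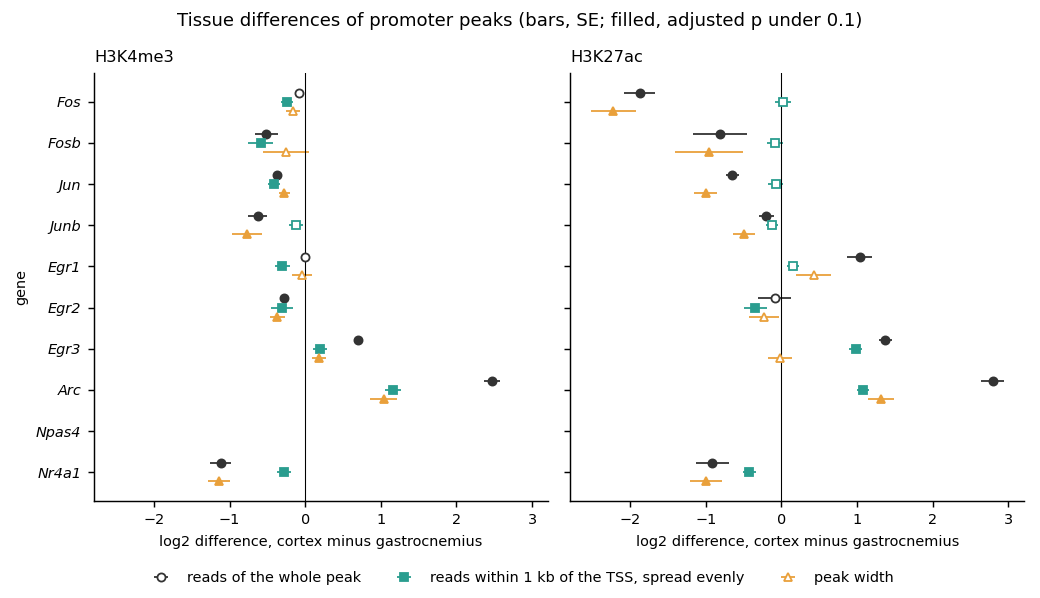
Log2 differences, cortex minus gastrocnemius, for H3K4me3 on the left and H3K27ac on the right. Circles are reads of the whole promoter peak, squares the reads assigned to the 2 kb around the TSS by spreading each peak's reads evenly and scaled to the average gene, and triangles the peak width. Error bars are SE and filled symbols have an adjusted p below 0.1. For Fos and H3K27ac the circle lies at −1.87 and the square at 0.02.

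The whole-peak reads of a gene depend on how far its peak runs. For H3K27ac, the Fos peak was 5.0, 6.4 and 8.0 kb wide in cortex and 9.4, 34.0 and 70.8 kb wide in gastrocnemius (log2 difference of width −2.22 ± 0.30, limma, adjusted p = 3.21e-06). Its median edges lay 2.9 kb upstream and 3.5 kb downstream of the TSS in cortex and 25.5 kb upstream and 3.7 kb downstream in gastrocnemius, so the added width lay mostly upstream. When each peak's reads were spread evenly over its width and only the 2 kb around the TSS counted, the Fos difference was 0.02 relative to the average gene (adjusted p = 0.886).

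The level of these differences depends on the scaling. TMM factors computed on the reads near the TSS set the median difference of all genes to 0.02 for H3K27ac and 0.03 for H3K4me3, so that a member's value is relative to the average gene. With RPM scaling alone, an alternative chosen after seeing the data, the medians of all genes were 0.29 and 0.33, and the share of calls that were higher in cortex rose from 52.0% to 86.7% and from 53.0% to 84.4%. The deposited lists hold no positions of reads within a peak, so the measure depends on the mean density of the peak and on how much of the 2 kb it covers.

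Relative to the average gene, 4 of 9 members passed for H3K27ac near the TSS, against 8 of 9 by whole-peak reads, and the share of all genes called fell likewise, from 72.6% to 49.1%. Arc (1.08) and Egr3 (0.98) passed above it, and they were also higher in cortex by RPM (1.36 and 1.25, adjusted p = 1.71e-10 and 8.32e-09), with means over libraries of 13.1 and 15.3 RPM against 5.07 and 6.45 RPM. Nr4a1 (−0.42, adjusted p = 0.000241) and Egr2 (−0.35, adjusted p = 0.0706) passed below the average gene, but by RPM neither differed past the threshold (−0.14 and −0.06, adjusted p = 0.230 and 0.744). Fosb (−0.08), Jun (−0.08) and Junb (−0.13) did not pass (adjusted p of 0.553, 0.594 and 0.217), nor did they by RPM, where their values were above 0 (0.19, 0.18 and 0.15). Egr1 (0.15, adjusted p = 0.121) and Fos passed by RPM alone, both higher in cortex (0.41 and 0.28, adjusted p = 0.00790 and 0.0961, 58.3% of all genes called).

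For H3K4me3 near the TSS, 8 of 9 members passed relative to the average gene, with 53.5% of all genes called, while by RPM 2 did, with 72.9% called. These 2 were Arc (1.16, and 1.46 by RPM) and Egr3 (0.19, adjusted p = 0.0971, and 0.51 by RPM), with smaller differences by either scaling than those of the whole peak. Fos (−0.24, adjusted p = 0.0185), Egr1 (−0.30, adjusted p = 0.0165) and Nr4a1 (−0.28, adjusted p = 0.0117) passed below the average gene, though their mean RPM was nearly the same in both tissues. Fos had 42.1 RPM in cortex and 40.1 RPM in gastrocnemius, Egr1 40.1 and 40.2 RPM, and Nr4a1 27.7 and 27.3 RPM (adjusted p by RPM of 0.469, 0.974 and 0.840). Jun (−0.41), Fosb (−0.59) and Egr2 (−0.31) also passed below it and not by RPM (−0.10, −0.30 and 0.03), and Junb passed by neither (−0.12 and 0.18).

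H3K27ac widths were smaller in cortex at 5 members, Fos, Fosb, Jun, Junb and Nr4a1, and larger at Arc, against 54.7% and 9.89% of all genes (64.6% in all). The Fosb call was lost without cortex replicate 4 (−0.83, adjusted p = 0.131). The Arc peak was 21.6, 24.2 and 25 kb wide in cortex and 4.8, 11.3 and 13.8 kb wide in gastrocnemius (1.32, adjusted p = 2.77e-06), and the Jun peak 6.6, 7.4 and 8.4 kb against 9.8, 13.9 and 20.2 kb (−1.0, adjusted p = 1.69e-05). Egr1 widths of 11, 23.4 and 29.2 kb in cortex and 11.2, 13.4 and 31.0 kb in gastrocnemius did not pass (0.43, adjusted p = 0.111), and did without cortex replicate 8 (0.55, adjusted p = 0.0336). Nr4a1 had the broadest acetylated peak of the family, 28.0, 54.6 and 79.6 kb in cortex and 66.4, 94.9 and 128 kb in gastrocnemius (−1.0, adjusted p = 0.000456), at the 99.3rd and 99.6th percentile of all genes. It also covered the promoters of Grasp, AU021063 and A330009N23Rik, in 5 of 9 cortex and 8 of 10 gastrocnemius libraries each, and those of Atg101 and Smim41 in 2 of 9 and 9 of 10.

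**Figure D3:**
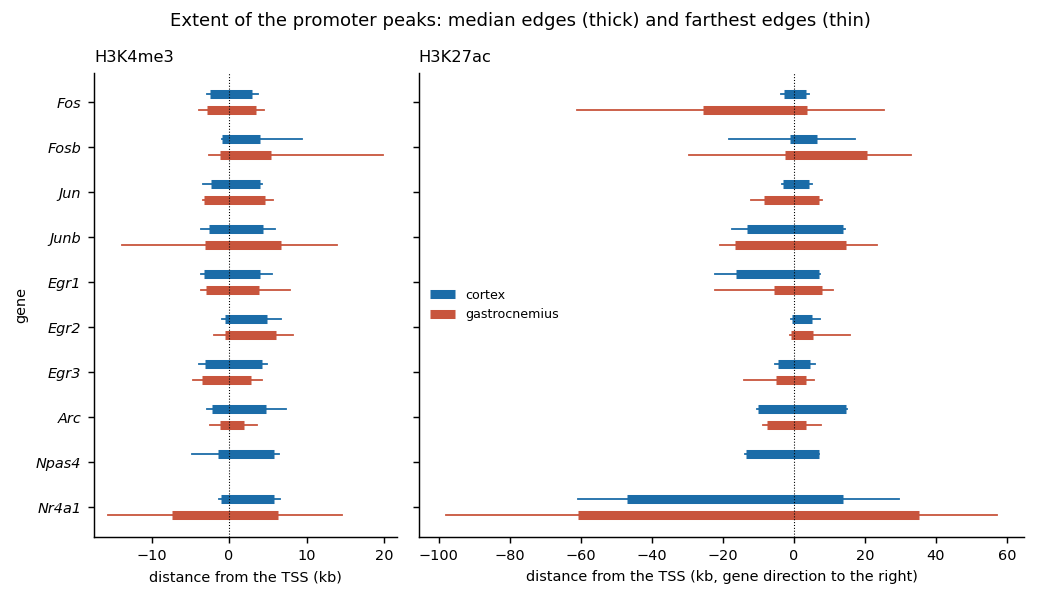
Extent of the promoter peaks relative to the TSS (kb, downstream to the right) for H3K4me3 on the left and H3K27ac on the right. Thick bars run between the median edges over libraries of a tissue and thin lines to the farthest edges, and the single gastrocnemius H3K4me3 peak of Npas4 is not drawn. The gastrocnemius H3K27ac bar of Fos runs 25.5 kb upstream, and that of Nr4a1 runs from 60.8 kb upstream to 35.2 kb downstream.

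H3K4me3 peaks of the family were broad in both tissues, except for Arc in muscle. Median widths in cortex ran from 5.0 kb for Fosb to 7.6 kb for Egr3, between the 83.2nd and the 96th percentile of genes, whose median was 3.0 kb. In gastrocnemius 8 of the 9 tested lay between the 80.5th percentile, of Fos, and the 98.5th, of Nr4a1, where the median gene had 3.9 kb. There Nr4a1 was broadest, at 11.6, 13.9 and 30.2 kb against 6.4, 6.8 and 7.4 kb in cortex (−1.14, adjusted p = 1.06e-06), where its median upstream edge moved from 1.0 kb to 7.3 kb before the TSS. Arc was the narrowest of the 9 in muscle, 1.8, 3.1 and 5.4 kb, at the 28.1st percentile of genes, against 5.8, 6.6 and 10.2 kb in cortex (1.04, adjusted p = 3.63e-05). By this measure 2 members, Arc and Egr3, were wider in cortex and 4, Jun, Junb, Egr2 and Nr4a1, in gastrocnemius, against 11% and 66.0% of all genes (77.0% in all). The Egr3 width call was lost without run-numbered libraries (0.18, adjusted p = 0.182).

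Per kilobase of peak, Jun was the most densely marked member. Its H3K4me3 density was 36.9 RPM per kb in cortex and 38.3 RPM per kb in gastrocnemius, at the 94.4th and 99.9th percentile of genes. Its H3K27ac density of 9.51 and 8.45 RPM per kb lay at the 98.3rd and 99.6th percentile. At the low end, Arc in gastrocnemius had 8.08 RPM per kb of H3K4me3 and 2.54 RPM per kb of H3K27ac, at the 16.2nd and 10.5th percentile, against 24.3 and 6.25 RPM per kb in cortex. Npas4 in cortex had 12.6 RPM per kb of H3K4me3, the lowest of the family there.

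H3K27me3 reads could be tested at the 2 promoters covered in all libraries, and both were higher in gastrocnemius (30.8% of all 2008 genes tested were, 25.1% were higher in cortex and 55.9% in either). Egr3 had 15.9, 21.1 and 31.8 RPM in cortex and 41.3, 52.4 and 85.7 RPM in gastrocnemius, without overlap (−1.36 ± 0.18, adjusted p = 2.68e-06). Egr2 had 26.0, 44.4 and 63.2 RPM and 46.3, 57.8 and 100 RPM, with overlap (−0.50 ± 0.18, adjusted p = 0.0259), and it did not pass when genes called in at least 9 libraries were included with 0 reads elsewhere (−0.37, adjusted p = 0.126). Egr3 was thus lower in cortex for H3K27me3 and higher there for both active marks.

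The peaks of Egr2 and Egr3 were laid out differently. At Egr2 the marks met near the TSS used, the most upstream of its 6 curated start sites. In cortex no H3K27me3 peak there reached beyond 1.3 kb downstream, so the Egr2 results hold for this start site. In cortex the median H3K27me3 peak ran from 8.5 kb upstream to 0.5 kb downstream of it, and the median H3K4me3 peak from 0.5 kb upstream to 4.9 kb downstream. At Egr3 the marks overlapped, since the cortex H3K27me3 peak ran from 0.1 kb to 4.1 kb downstream within the H3K4me3 peak, which ran from 3.1 kb upstream to 4.3 kb downstream. In gastrocnemius the Egr3 H3K27me3 peak was wider, 4.2, 11 and 20.4 kb against 2.8, 4.2 and 8.0 kb (−1.28, adjusted p = 0.00590), while Egr2 widths did not pass (−0.44, adjusted p = 0.148). One of 2 members was thus wider in gastrocnemius, against 18.1% of all genes, with 7.42% wider in cortex and 25.5% in either. Without run-numbered libraries the Egr3 width did not pass (−0.73, adjusted p = 0.152), and over all genes the balance turned, with 306 wider in cortex and 160 in gastrocnemius against 149 and 364 in all libraries.

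Arc and Npas4 had H3K27me3 peaks of varied size. The 10 gastrocnemius peaks over the Arc promoter held 23.3, 70.9 and 118 RPM as the lowest, median and highest, and ran to a median of 11.8 kb upstream. Npas4 held 15.8, 30.3 and 63.6 RPM in the 5 cortex libraries with a peak and 16.4, 44.0 and 94.8 RPM in the 9 of gastrocnemius, where replicate 5, the deepest H3K27me3 library, was the highest.

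Most flanks differed between the tissues, among the members as among all genes. For H3K27ac reads from 1 to 50 kb, 5 members were higher in cortex and 4 in gastrocnemius (limma on log2 RPM with a pseudocount of 1 RPM), and 40.9% and 44.5% of all genes were (85.4% in all). Arc flanks held 230, 257 and 318 RPM in cortex and 66.2, 80.2 and 92.9 RPM in gastrocnemius (1.72, adjusted p = 3.70e-16). Npas4 flanks held 172, 208 and 229 RPM and 89.8, 101.4 and 121 RPM (0.98), and Egr1 flanks 228, 262 and 290 RPM and 131, 142 and 178 RPM (0.83). None of these 3 genes had overlapping groups, and the share of all genes without overlap was not counted. With covered bases in place of reads the Egr1 call was lost (0.10, adjusted p = 0.336).

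Fos and Jun had the opposite pattern in H3K27ac. Fos flanks held 96.2, 113 and 119 RPM in cortex and 217, 256 and 267 RPM in gastrocnemius (−1.15, adjusted p = 4.66e-16). Jun flanks held 47.7, 58.1 and 78.5 RPM and 177, 200 and 235 RPM (−1.71, adjusted p = 2.03e-14). No other curated TSS lies within 50 kb of either gene.

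The other members had smaller H3K27ac flank differences. Egr2 was higher in cortex by 0.33, a call lost with covered bases (0.02, adjusted p = 0.908), while Nr4a1 fell by 0.35 and Fosb fell by 0.20 in cortex. Junb at 0.10 (adjusted p = 0.0299) changed sign in a flank of 25 kb (−0.12). Egr3 at 0.09 did not pass (adjusted p = 0.120), and its call depended on the setting. It was higher in cortex with the animal as a block (0.11, adjusted p = 0.0947), without cortex replicate 8 (0.11, adjusted p = 0.0725) and without run-numbered libraries (0.17, adjusted p = 0.00743), and higher in gastrocnemius with covered bases (−0.21, adjusted p = 0.0377). In a flank of 25 kb the Egr3 difference was 0.60 (adjusted p = 3.93e-09).

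For H3K4me3, the flanks of Arc (0.82), Npas4 (0.59), Egr1 (0.47), Egr3 (0.20) and Junb (0.13) were higher in cortex, and those of Fos (−0.57), Jun (−0.52), Nr4a1 (−0.43) and Fosb (−0.39) higher in gastrocnemius, against 30.2% and 50.9% of all genes (81.1% in all). Egr2 at 0.07 did not pass (adjusted p = 0.176) and did without run-numbered libraries (0.11, adjusted p = 0.0414), and Junb changed sign in a flank of 25 kb (−0.20). With covered bases in place of reads, Junb (−0.31) and Egr3 (−0.63) were instead called higher in gastrocnemius for H3K4me3, and the calls of Npas4 (0.17, adjusted p = 0.203) and Egr1 (−0.10, adjusted p = 0.53) were lost.

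H3K27me3 flanks separated Fos and Jun from Arc. Fos flanks held 11.8, 28.9 and 33.8 RPM in cortex and Jun flanks 25.1, 45.2 and 68.8 RPM. Both were at 0 in all 10 gastrocnemius libraries. Both met the filter of at least 9 libraries with reads through cortex alone, so no p-value is given for them. Fosb flanks held 17.2, 27.8 and 37.9 RPM in cortex and 0, 11.2 and 20.7 RPM in gastrocnemius (2.13, limma, adjusted p = 0.00618). Arc flanks were the reverse, 23.0, 67.4 and 159 RPM in cortex and 206, 313 and 444 RPM in gastrocnemius (−2.17, adjusted p = 3.37e-07).

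Of the 8 members tested for H3K27me3 flanks, 3 were higher in cortex and 3, Arc, Junb (−0.29, adjusted p = 0.0333) and Egr2 (−0.23, adjusted p = 0.0912), in gastrocnemius, against 36.2% and 33.4% of all genes (69.5% in all). Fos and Jun, both counted as higher in cortex, entered the test through their cortex libraries alone. The Egr2 call was lost without the libraries of fewest reads (adjusted p = 0.272), without run-numbered libraries (0.132), with no filter on genes (0.116) and with covered bases (0.294). Egr3 (−0.22, adjusted p = 0.198) and Npas4 (−0.41, adjusted p = 0.213) did not pass, and Egr3 did with the animal as a block (−0.34, adjusted p = 0.0430) and without gastrocnemius replicate 5 (−0.34, adjusted p = 0.0101), the animal that gave no cortex. Without run-numbered libraries Egr3 passed as well (−0.36, adjusted p = 0.0427), and in a flank of 25 kb both genes did (Egr3 −0.52, adjusted p = 0.0118; Npas4 −0.53, adjusted p = 0.0917). Nr4a1 flanks were at 0 in all 19 libraries. Egr1 flanks were at 0 in all cortex libraries and held 0, 14.4 and 35.8 RPM in gastrocnemius, too few libraries with reads for the test.

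Cut into 98 bins of 1 kb a gene, the flanks showed where these reads lay. A bin was counted as marked where a peak covered at least 500 bp of it. Fisher's exact test over libraries was made for every bin of the genome marked in any library of the mark. Shares below are of these tested bins, while the count of a member is out of its 98 bins. For H3K27ac, Fos had 50 bins marked more often in gastrocnemius and 3 in cortex, Jun 48 and 0, and Arc 0 and 39. Of all bins tested, 18.5% were marked more often in gastrocnemius and 15.4% in cortex. The longest H3K27ac run of Fos lay 35.9 to 19.9 kb upstream, with 0 to 2 cortex and 7 to 10 gastrocnemius libraries in each bin. Jun had a run of the same length, 33.8 to 17.8 kb upstream, with 0 to 3 and 5 to 10 libraries.

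H3K27me3 in the same flanks was marked more often in cortex. Jun had 8 such bins, all in 1 run 27.8 to 19.8 kb upstream with 5 to 9 cortex and 0 gastrocnemius libraries. This run lay inside the stretch acetylated in muscle. Fos had 6, between 49.9 and 42.9 kb upstream with 5 to 7 cortex and 0 gastrocnemius libraries, where an H3K27ac run of muscle also reached from 49.9 to 38.9 kb upstream. Of the H3K27me3 bins tested, 6.71% were marked more often in cortex and 6.16% in gastrocnemius.

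Arc had 55 H3K27me3 bins marked more often in gastrocnemius and 0 in cortex, the most of any member. The longest run, of 19 bins and counting those of the promoter, reached from 15.4 kb upstream to 3.6 kb downstream of the TSS and so over the whole gene, with 0 to 3 cortex and 8 to 10 gastrocnemius libraries. In cortex the H3K27ac bins of Arc reached 3.6 to 9.6 kb and 26.6 to 36.6 kb downstream, in 9 and in 5 to 9 cortex libraries. Within 50 kb of Arc, the promoters of Mroh4 and Psca had H3K27me3 peaks in 10 of 10 gastrocnemius libraries and in 6 and 9 of 9 cortex libraries, while those of Jrk, 4933427E11Rik and Them6 had both active marks in all libraries.

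**Figure D4:**
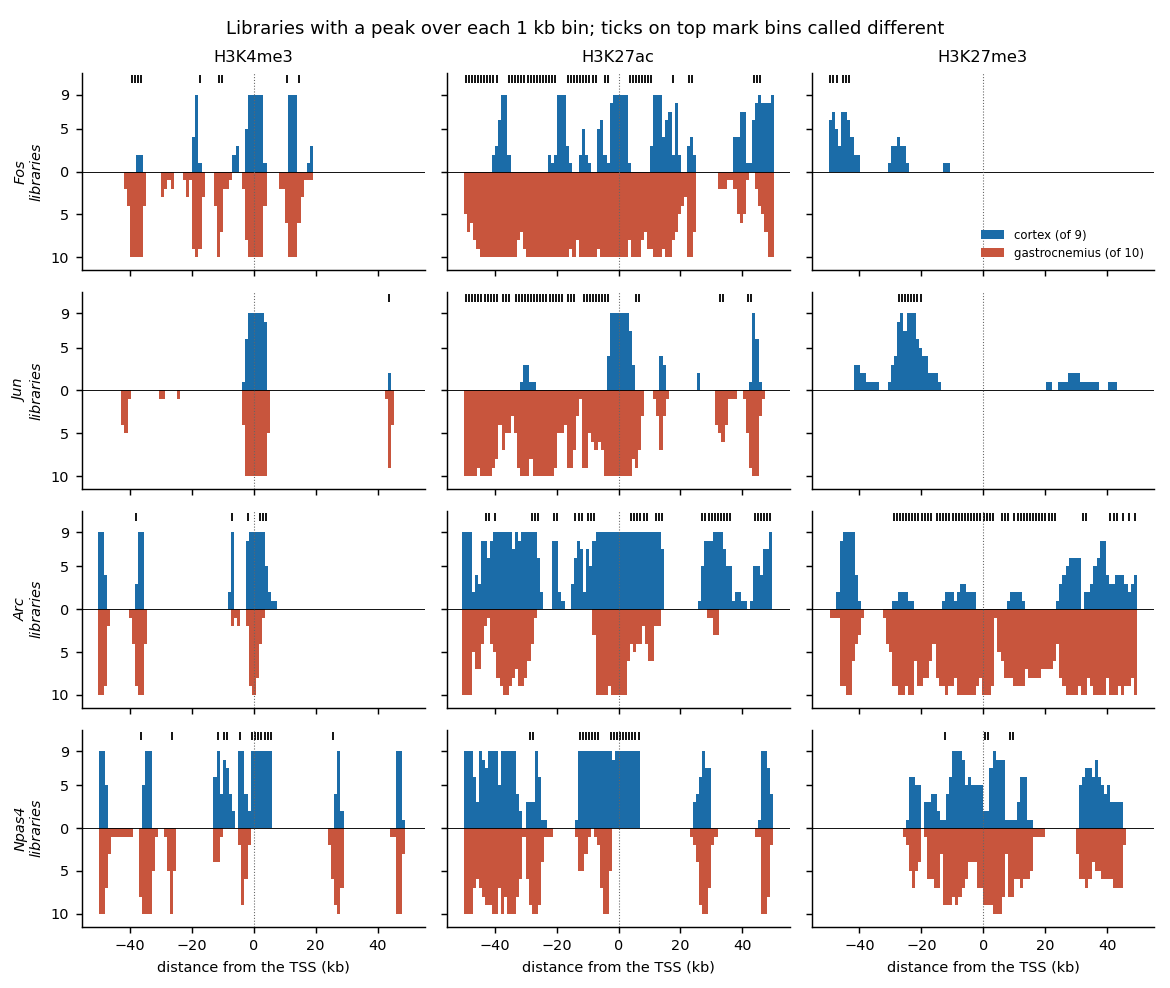
Number of libraries with a peak over each 1-kb bin (vertical axis, of 9 for cortex and 10 for gastrocnemius) against distance from the TSS in kb, for Fos, Jun, Arc and Npas4 in rows and the 3 marks in columns. Ticks on top mark bins whose frequency differed between tissues. H3K27ac fills the upstream side of Fos and Jun in gastrocnemius, and H3K27me3 fills 55 bins around Arc in gastrocnemius more often than in cortex.

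In H3K27ac the other members had fewer differing bins than Fos, Jun and Arc. Npas4 had 15 H3K27ac bins marked more often in cortex and 2 in gastrocnemius, all 15 between 13.0 kb upstream and 7.0 kb downstream. Nr4a1 had 14 H3K27ac and 14 H3K4me3 bins marked more often in gastrocnemius and 0 in cortex for each. Its H3K4me3 run from 6.8 to 0.8 kb upstream had 0 or 1 cortex and 10 gastrocnemius libraries. Fosb had 25 H3K4me3 bins marked more often in gastrocnemius, and the promoter of Ppm1n, 30.0 kb downstream of its TSS, had an H3K4me3 peak in 3 of 9 cortex and 10 of 10 gastrocnemius libraries. Of the H3K4me3 bins tested, 15.3% were marked more often in gastrocnemius and 5.86% in cortex.

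Promoter reads, as log2(RPM + 1) centred within each mark, were correlated between each member and all other genes over the 57 libraries. The closest likeness was that of Arc with Ncam1 (Pearson r = 0.98), Elovl7 and Tmod2 (0.98 each), followed by Jun with Zc3h4 (0.96), Klf10 and Zfand5 (0.95 each) and Fos with Psme4 (0.95). Junb was most like Rnaseh2a (0.88), whose TSS lies 12.7 kb away and whose promoter shares the Junb H3K27ac peak. Egr2 had no close match, the highest being 0.61. Among members, Egr3 and Arc were most alike (0.89) and Jun and Npas4 least (−0.77). The points share libraries and tissues, and no test was made.

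Of 43 other activity-regulated genes, 38 could be tested for H3K27ac reads, and 10 were higher in cortex and 25 in gastrocnemius, with a median of −0.64, against 33.9%, 38.7% and a median of −0.06 over all genes. Maff (−3.24), a small bZIP partner, Klf2 (−2.54) and the survival gene Mcl1 (−2.54) had the largest log2 differences towards gastrocnemius, and the kinase gene Sgk1 (2.73), the activin subunit gene Inhba (2.22) and the phosphatase gene Dusp5 (1.47) those towards cortex. For H3K27me3, 4 of the 19 tested were called more often in cortex and 3 in gastrocnemius, against 9.94% and 12.3% of all genes. Bdnf had a promoter peak in 9 of 9 cortex and 3 of 10 gastrocnemius libraries (Fisher's exact test, adjusted p = 0.0191), as had Ccn1 in 9 and 0, Ccn2 in 9 and 3 and Klf4 in 5 and 0. Inhba had one in 2 of 9 and 10 of 10 (exact test, adjusted p = 0.00581), Dusp6 in 0 and 7 and Sgk1 in 0 and 6. Like Arc, Inhba, Sgk1 and Dusp6 (H3K27ac 0.47, adjusted p = 0.00113) thus had more H3K27ac in cortex and H3K27me3 more often in gastrocnemius, while Bdnf had more H3K27ac (0.72, adjusted p = 0.00816) and H3K27me3 more often in cortex. Ccn1 (H3K27ac −1.75), Ccn2 (−0.60) and Klf4 (−0.68) had less H3K27ac in cortex and H3K27me3 more often there. Of 9 upstream regulators of the family, 2 were higher in cortex and 4 in gastrocnemius for H3K27ac reads, where 72.6% of all genes were called in either direction.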

How the data were processed

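ChIP-seq of H3K4me3, H3K27ac and H3K27me3 was used from 57 libraries. The authors called peaks in each library with epic2 (200-bp windows, 2 gaps for H3K4me3 and H3K27ac, 3 for H3K27me3, FDR of 0.05, as the deposited names state) on mm10. The deposited lists give each peak's ChIP read count, which is a whole number, and an epic2 score, used here only to drop low-scoring peaks in alternatives. They give no position of reads within a peak. Counting intervals are not given, since the spread between animals sets the precision. Groups came from the labels, and the animal number, read from the deposited names, gave the pairing.

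A gene had 1 TSS, that of its RefSeq Select or longest curated transcript on GRCm38.p6. Peaks overlapping the bases within 1 kb were counted whole. Calls were compared with Fisher's exact test, reads with edgeR 4.0.16 (quasi-likelihood, TMM, genes called in all 19 libraries of a mark), widths on log2 and flank reads as log2(RPM + 1) with limma 3.58.1, flanks where at least 9 libraries had reads. All p-values are two-sided and adjusted (Benjamini-Hochberg) over all genes of a mark, with a threshold of 0.1. R 4.3.3, Python 3.11.15, pandas 2.3.3, SciPy 1.17.1 and matplotlib 3.10.9 were used, with DESeq2 1.42.0 as an alternative. Standard errors of edgeR differences were derived from the test statistic.

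Same-numbered animals were checked for pairing. Deviations of the 9 animals' paired tissues correlated between −0.05 and 0.07 for H3K4me3, −0.02 and 0.09 for H3K27ac and −0.04 and 0.15 for H3K27me3. The samples are paired because both tissues came from the same animals.

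The steps were tested on simulated data. edgeR recovered 92, 57 and 31 of 100 genes changed 1.5-fold for H3K4me3, H3K27ac and H3K27me3 (13901, 13330 and 2008 genes simulated). For widths, limma recovered 40, 10 and 21 of 100, so a width that did not pass may still differ. The alternatives tried were a wider window, any curated TSS, dropping low-scoring peaks, leaving out libraries, the animal or run as a term, other scalings, reads near the TSS, covered bases and other flanks. The members and gene lists were chosen with earlier results of these data known.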

Additional observations from a re-analysis of the deposited data

Results flagged for a closer look

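In 31 of 149 groups of 9 or 10 libraries, the highest or lowest value stood apart from the others by Dixon's test at the 95% level, which chance alone flags in about 1 of 20 groups. The groups share libraries and the 3 quantities of a gene are related, so the flags are not independent.

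Gastrocnemius replicate 6 stood highest in 5 H3K4me3 groups. Its promoter peaks held 252 RPM at Fosb and 371 RPM at Nr4a1, its Junb peak was 27.6 kb wide, and its flanks held 282 RPM at Fos and 612 RPM at Nr4a1. In H3K27ac, gastrocnemius replicate 6 had the widest peaks at Junb (43.8 kb) and Egr3 (18.0 kb). In H3K27me3, gastrocnemius replicate 6 had the one promoter peak of Egr1, of 15.5 RPM and 4.4 kb. The called direction of Fosb, Junb, Nr4a1 and Fos in H3K4me3 was unchanged without this library.

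Cortex replicate 8 was the lowest in H3K27ac at Egr1 (50.7 RPM and 11 kb) and in the Nr4a1 flanks (330 RPM). Cortex replicate 4 was the lowest at the Npas4 promoter (39.5 RPM and 8.4 kb) and the highest in the Egr3 flanks (214 RPM). Gastrocnemius replicate 10 was the highest at Egr2 (63.4 RPM and 16.8 kb), and replicate 7 at the Jun promoter (158 RPM) and in the Junb flanks (312 RPM). Cortex replicate 1 was the lowest in the Fos flanks (96.2 RPM).

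In H3K4me3, cortex replicate 5 was the highest at Jun, with 267 RPM in the promoter peak and 186 RPM in the flanks. Cortex peaks were widest at Junb in replicate 6 (9.6 kb), at Egr1 and Arc in replicate 9 (9.2 and 10.2 kb) and at Egr2 and Npas4 in replicate 3 (7.0 and 10.6 kb). Gastrocnemius replicate 4 had the one Npas4 peak of its tissue (4.89 RPM and 3.0 kb). In H3K27me3, gastrocnemius replicate 8 held the most reads at Egr2 (100.01 RPM) and replicate 5 the widest Egr2 peak (24.0 kb). The cause of these values was not tested.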

How the results depend on the processing

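Of the counts of members called under an alternative, 243 stayed within 1.5 times the value reported and 15 did not. Members called higher in cortex fell from 1 to 0 for H3K4me3 and H3K27ac peak calls with the 2.5-kb window, and to 0 for H3K4me3 calls in the replicate block by animal. Without libraries that carry a run number, 1 member was wider in cortex for H3K4me3, 0 were wider in gastrocnemius for H3K27me3 and 1 was higher in cortex for H3K27me3 flanks, which was also 1 with a 25-kb flank or without the libraries of fewest reads, where 6, 5 and 6 members had enough libraries with reads to be tested in place of 8. With covered bases in place of reads, 1 member was higher in cortex for H3K4me3 flanks and 2 for H3K27ac flanks. With reads near the TSS, 2 were higher in gastrocnemius for H3K27ac, and with the same reads by RPM without TMM, 0 for H3K4me3, 0 for H3K27ac and 1 for H3K27me3. Without cortex replicate 8, 2 H3K27ac peaks were wider in cortex. Among single-gene values, 892 kept their direction and side of the threshold, 28 lost it, 16 gained it and 24 turned. Directions turned for Egr2 H3K27ac reads (0.42 without run-numbered libraries, 0.080 in the replicate block, 0.091 with the run as a term and 0.20 without gastrocnemius replicate 10, the other 2 libraries left out keeping the sign, down to −0.073), Fos H3K27ac reads near the TSS (0.021), reads near the TSS by RPM (H3K4me3 of Fos 0.073, Junb 0.18, Egr2 0.027 and Nr4a1 0.022, H3K27ac of Fos 0.28, Fosb 0.19, Jun 0.18 and Junb 0.15), H3K27ac widths of Egr2 (0.11) and Egr3 (0.011) without run-numbered libraries and the H3K4me3 width of Egr1 (0.026) without the libraries of fewest reads. They also turned for Junb flanks at 25 kb (−0.20 for H3K4me3, −0.12 for H3K27ac) and, with covered bases, for H3K4me3 flanks of Junb (−0.31), Egr1 (−0.096), Egr2 (−0.15) and Egr3 (−0.63) and H3K27ac flanks of Junb (−0.023) and Egr3 (−0.21, past the threshold). Among the members' promoter and flank values, the replicate block changed no call beside those already given, and over all genes it lowered the share called different in peak presence from 8.4% to 4.86% for H3K4me3, 13.4% to 8.57% for H3K27ac and 22.2% to 9.62% for H3K27me3. The 1-kb bins and the other activity-regulated genes were compared without a block. The cause of these changes was not tested, except that leaving out libraries lowers the number of samples and a wider window takes in more peaks. H3K27me3 reads could be tested at 2 members only, and the depth of 2.99 M reads in the shallowest H3K27me3 library limits what its missing peaks show.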
